A study of Gossypium hirsutum with 3 samples.

Results

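The flavonoid pathway genes described here were 4 of the 11143 genes on a cotton oligonucleotide array. They were Contig5884, described by its best match as chalcone synthase, GhBM356399, a flavanone 3-hydroxylase, TMIRS_054_C08.F, a flavonoid 3'-hydroxylase, and TMIRS_041_G06.F, similar to a flavonoid 3',5'-hydroxylase. A gene was found on the array by its name, with a leading RC_ or a1_ and a trailing dot dropped, and 15 probes, each printed in 1 spot, carried these names. The flavanone 3-hydroxylase was one of the benchmark genes that the study placed on the array for comparison with earlier work on fiber. The other 3 genes were taken from a table that the study drew up from these arrays and from arrays of 10 dpa fiber, which were not analysed here. Their ratios between the RNAs of these arrays are therefore given as a description, and no test of them is offered as support.

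RNA of fiber initials at 1 dpa (days post anthesis, counted from the opening of the flower) was set against RNA of whole ovules at 1 dpa, both from field grown upland cotton, *Gossypium hirsutum*, with no treatment. The initials are the epidermal cells that have begun to grow out of the ovule, and by the methods they were shaken off the frozen ovules of pooled bolls with glass beads, so that the whole ovules still carried their own initials. The methods name polyribosomal RNA, which is bound to ribosomes, plants of the cultivars DES119 and ST4793R with no word on which array held which, and harvests of separate days as replicates, while the labels name total RNA in one field and a polyribosomal preparation in another. Each of the 3 arrays held a pair of RNAs, one in green (Cy3) and the other in red (Cy5), with the dyes swapped on 1 array.

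Flavonoids are phenolic compounds made from phenylalanine. Chalcone synthase joins a phenylpropanoid unit to malonyl units and so makes the first compound of the pathway, and flavanone 3-hydroxylase turns flavanones into dihydroflavonols, from which flavonols, anthocyanins and tannins are made. The 3'-hydroxylase and the 3',5'-hydroxylase are cytochrome P450 enzymes that add hydroxyl groups to the B ring, which sets the class of pigment or tannin formed. In the seed coat of Arabidopsis and of cotton, which develops from the integuments of the ovule, tannins of this pathway accumulate and brown the coat. The series holds no sample of seed coat or of separated integuments, so that the place of expression within the ovule cannot be read from these arrays.

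Direction was not settled by the labels. The spots carry codes for their RNAs, which were SP2A in green and SP1A in red on array 1, SP1E in green and SP2A in red on array 2, and SP2C in green and SP1F in red on array 3. The labels call the SP2 RNA fiber on array 1 and ovule on arrays 2 and 3. Over all genes tested (a correlation across genes, not across replicates), red over green ratios had a Pearson r of -0.58 between arrays 1 and 2, whose dyes were alike by the labels, and of -0.81 between arrays 2 and 3, whose dyes were swapped by the labels. Turned by the codes, r was 0.58 between arrays 1 and 2, 0.52 between arrays 1 and 3 and 0.81 between arrays 2 and 3. All ratios below are therefore SP2 over SP1 RNA. With the label of array 1 taken as right, they are ratios of fiber to ovules. With the labels of arrays 2 and 3 taken as right, they are ratios of ovules to fiber, and each keeps its size with the sign turned. Of 5 genes known from young fiber (GhFDH, MYB109, MYB2, GhRDL and GhACY), 5 had a positive mean ratio. Their means lay between 0.37 and 1.29 on the log2 scale, where the median over all genes tested was 0.04. Of the 5, GhACY was below 0 on array 1 (-0.73). The test across all genes (limma) called 2 of these 5 genes higher in the SP2 RNA, against 3.95% of all genes tested. Of 3 genes of dividing cells (histones H4 and H2A and topoisomerase II), 3 were called lower in the SP2 RNA, against 8.31% of all genes tested. Their mean ratios lay between -3.33 and -2.26. Both sets of genes were picked with earlier results of these data known, so nothing on direction is read from these counts. Arrays 1 and 2 share the code SP2A, and whether that means a shared harvest is not given in the sources used here.

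Chalcone synthase and the flavonoid 3'-hydroxylase had less signal in the SP2 RNA than in the SP1 RNA on each of the 3 arrays. The mean differences were 3.40-fold and 2.72-fold. Of all genes tested, 23.1% had ratios below 0 on all 3 arrays. The flavanone 3-hydroxylase had less signal in the SP2 RNA on array 1 and more on arrays 2 and 3, so that its mean stood near 0. The 3',5'-hydroxylase-like gene was dim in both RNAs and had a mean ratio of -0.27. The test across all genes (limma) called 2 of the 4 genes lower in the SP2 RNA and 0 higher at an adjusted p under 0.05, where 12.3% of the 11081 genes tested were called, 8.31% lower and 3.95% higher. With a fold of 2 or more and an unadjusted p up to 0.05, the study's threshold applied to the p of limma, the same 2 genes passed, both lower, against 6.46% of all genes (4.73% lower). Since the genes were chosen from a table made with these arrays, nothing is read from these counts. Chalcone synthase lost its call where ratios were centred on their median without loess (-1.58), and neither gene was called with the deposited ratios (-1.43 and -1.29) or with an ordinary test without pooling of the spread. At an unadjusted p under 0.05, the deposited ratios gave both genes, among 1742 of the 11081 genes tested. The ordinary test gave the 3'-hydroxylase alone of the 4, among 1712. In such samples fewer cells of a type and less RNA per cell cannot be told apart.

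**Figure D1:**
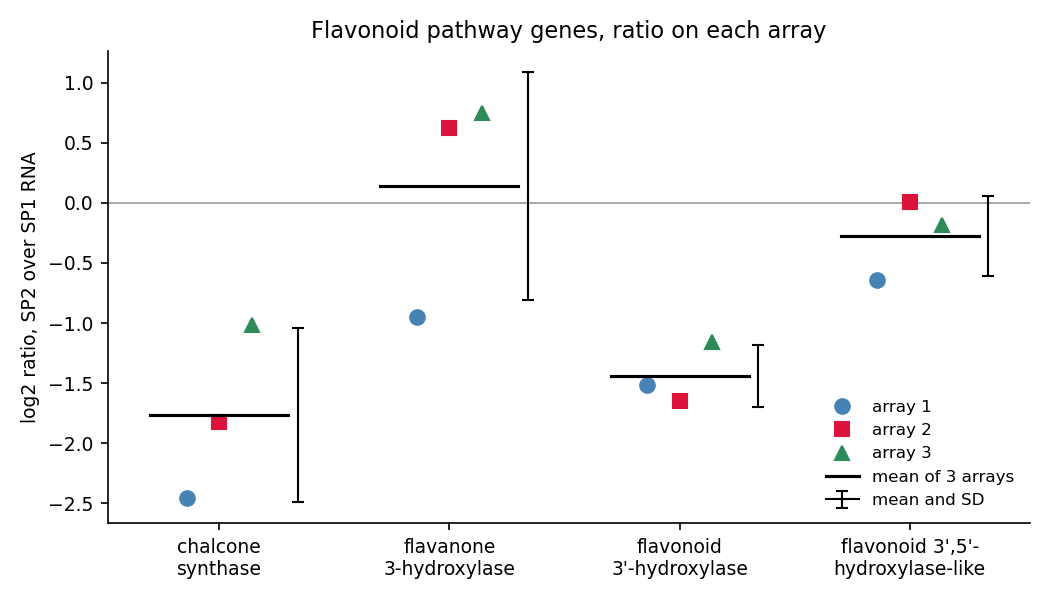
Log2 ratio of SP2 over SP1 RNA (vertical axis) of the 4 genes on arrays 1, 2 and 3 (points), with the mean over the 3 arrays (line) and its SD (bar). Chalcone synthase and the flavonoid 3'-hydroxylase lie below 0 on every array, and the flavanone 3-hydroxylase lies below 0 on array 1 and above 0 on arrays 2 and 3.

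Chalcone synthase, the enzyme of entry into the pathway, had log2 ratios of SP2 over SP1 RNA of -2.46 on array 1, -1.83 on array 2 and -1.01 on array 3, with a mean of -1.77 ± 0.72 (SD, n = 3 arrays). All 3 were below 0, but array 3 showed a much smaller difference than array 1. Taken as SP1 over SP2, the mean is 1.77. Only 1.20% of the genes tested had a lower mean, and 96.0% had ratios that varied less from array to array.

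The levels of the single RNAs did not place this variation in one RNA. On a log2 scale normalised between arrays, chalcone synthase had levels of 8.83, 9.86 and 9.65 in the SP2 RNAs of arrays 1, 2 and 3, against 11.29, 11.69 and 10.66 in the SP1 RNAs. The highest SP2 level was thus below the lowest SP1 level, a separation found in 15.6% of all genes tested (11.7% had it the other way, with SP2 above SP1). The levels spread over about the same range within each RNA, 1.03 in both, with the lowest SP2 level on array 1 and the lowest SP1 level on array 3.

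The 4 probes that carry the name of chalcone synthase did not behave alike. Probe 3 was the most different between the RNAs, with background-subtracted signals of 463, 1639 and 879 in the SP2 RNAs of arrays 1, 2 and 3 and 8482, 6718 and 2173 in the SP1 RNAs. Its mean ratio of -2.86 stands for a 7.28-fold difference. Probe 4 had 2080, 6543 and 3741 in the SP2 RNAs and 15616, 10836 and 5556 in the SP1 RNAs, and a mean ratio of -1.92. Probe 2 had a mean ratio of -2.21. The SP2 signal was below the SP1 signal for these 3 probes on every array.

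Probe 1 of the same gene stood apart. It had signals of 157, 118 and 82.2 in the SP2 RNAs and 182, 95.0 and 74.3 in the SP1 RNAs, and a mean ratio of -0.06. These signals were dim but above the negative control spots, whose medians were 82.8, 23.7 and 38.7 in the SP2 channels and 55.2, 42.8 and 26.9 in the SP1 channels. Without probe 1, the gene had ratios of -3.24, -2.50 and -1.26 on arrays 1, 2 and 3 and a mean of -2.33 ± 1.00 (SD, n = 3), a 5.04-fold difference. The probe was singled out after its values were seen.

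The flavonoid 3'-hydroxylase, which adds a hydroxyl group to the B ring, differed between the RNAs by nearly the same amount on each array. Its log2 ratios were -1.52 on array 1, -1.65 on array 2 and -1.16 on array 3, with a mean of -1.44 ± 0.25 (SD, n = 3), or 1.44 as SP1 over SP2. Its array to array range of 0.49 was close to that of a usual gene, since 53.5% of the genes tested varied less, and 2.00% of genes had a lower mean ratio.

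In the single RNAs the 3'-hydroxylase had log2 levels of 8.35, 8.16 and 8.01 in the SP2 RNAs of arrays 1, 2 and 3, against 9.87, 9.81 and 9.17 in the SP1 RNAs. The SP2 levels all lay below the SP1 levels, as in 15.6% of all genes tested (11.7% had it the other way). The SP2 levels lay closer together (SD 0.17) than the SP1 levels (SD 0.39). As for chalcone synthase, the lowest SP1 level was that of array 3. The 2 genes thus shared a direction on each array, and the difference between their ratios, chalcone synthase minus 3'-hydroxylase, was -0.94, -0.18 and 0.14 on arrays 1, 2 and 3 (mean -0.32 ± 0.55, SD, n = 3). That difference changed sign between arrays and was smaller than its spread.

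The probes of the 3'-hydroxylase also fell apart, with the SP2 signal below the SP1 signal on every array for 3 of them but not for probe 1. Probe 3 had signals of 316, 301 and 166 in the SP2 RNAs of arrays 1, 2 and 3 and 2718, 1429 and 622 in the SP1 RNAs, and a mean ratio of -2.55. Probes 4 and 2 had mean ratios of -1.84 and -1.31. Probe 1, in contrast, had ratios of 0.65, -0.75 and -0.09 and a mean of -0.06. It was not dim, with signals of 896, 479 and 403 in the SP2 RNAs and 651, 585 and 319 in the SP1 RNAs. Without it the gene had a mean ratio of -1.90 ± 0.37 (SD, n = 3), a 3.73-fold difference, with -2.24, -1.95 and -1.51 on arrays 1, 2 and 3.

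**Figure D2:**
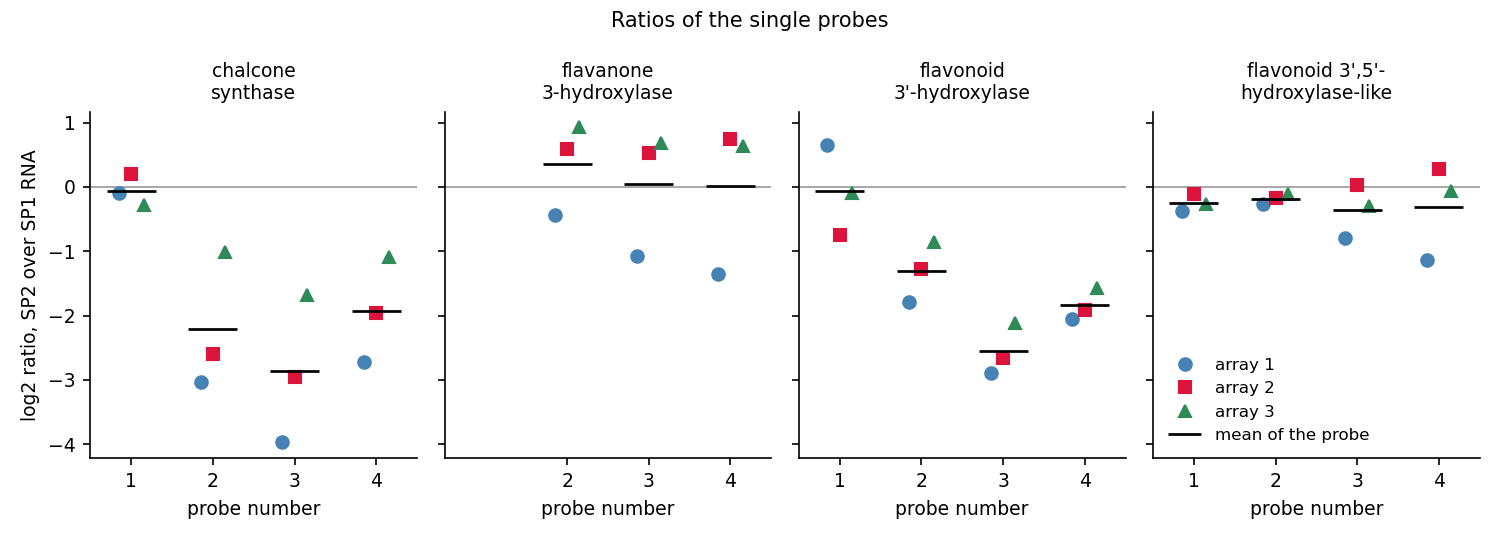
Log2 ratio of SP2 over SP1 RNA (vertical axis) of each probe (horizontal axis, probe number within the gene) on arrays 1, 2 and 3 (points), with the mean of the probe (line). In chalcone synthase and the flavonoid 3'-hydroxylase probes 2 to 4 lie below 0 on every array, and the means of probe 1 are -0.06 in both.

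Such a spread among probes was rare on the array. The means of the 4 probes differed by up to 2.80 in chalcone synthase and by up to 2.49 in the 3'-hydroxylase, where the median over the 7418 genes with 4 probes was 0.33, and 99.9% and 99.8% of those genes had a smaller spread. Genes that differ between the RNAs have more room for a spread, and among the 665 genes of 4 probes called lower in the SP2 RNA the median was 0.88, with 99.4% below chalcone synthase and 98.0% below the 3'-hydroxylase. When limma was fitted to the single probes, 6 of the 15 probes of the 4 genes were called lower in the SP2 RNA and 0 higher, where 7.08% of the 38713 probes tested were called, 5.14% lower and 1.95% higher. The 6 were probes 2 to 4 of chalcone synthase and of the 3'-hydroxylase, and these ratios belong to the same comparison that led to the choice of the genes. Chalcone synthases form a family of similar genes, and upland cotton carries a pair of related subgenomes. How far a probe also binds such copies was not tested.

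The flavanone 3-hydroxylase, a later enzyme of the main route, did not follow the pair above. Its log2 ratios of SP2 over SP1 RNA were -0.95 on array 1, 0.62 on array 2 and 0.75 on array 3, with a mean of 0.14 ± 0.95 (SD, n = 3), or -0.14 as SP1 over SP2. Array 1 stood against the other arrays, and the range over arrays was larger than in 98.1% of the genes tested. It had 3 probes, and each was below 0 on array 1 and above 0 on arrays 2 and 3. Without array 1 the mean was 0.69 and the gene was called higher in the SP2 RNA, as were 1121 of the 11081 genes tested. That fit rests on arrays 2 and 3 alone. The mean was -0.10 without array 2 and -0.17 without array 3, with no call.

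Probe 4 had signals of 1056, 10050 and 5228 in the SP2 RNAs of arrays 1, 2 and 3, against 3137, 2790 and 2367 in the SP1 RNAs. Probe 3 had 394, 2464 and 1136 in the SP2 RNAs and 958, 1025 and 525 in the SP1 RNAs. In both probes the SP2 signal of array 1 was the lowest of the 6 and the SP2 signals of arrays 2 and 3 were the highest. Probe 2 had 594, 2066 and 1003 in the SP2 RNAs and 927, 848 and 382 in the SP1 RNAs, so that its lowest signal was that of the SP1 RNA on array 3, and the SP2 signals of arrays 2 and 3 were again the highest.

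On the normalised scale, over its 3 probes, the SP2 level of array 1 was the lowest and those of arrays 2 and 3 the highest. The flavanone 3-hydroxylase had log2 levels of 9.12, 11.43 and 11.02 in the SP2 RNAs of arrays 1, 2 and 3 (SD 1.23), against 10.07, 10.80 and 10.27 in the SP1 RNAs (SD 0.38). The RNA coded SP2A was on array 1 in green and on array 2 in red, and between these arrays the level of the gene differed by 2.31, more than in 99.7% of the genes tested, where the median difference was 0.32. For chalcone synthase the SP2A levels differed by 1.03, for the 3'-hydroxylase by -0.19 (array 2 minus array 1). The SP1 levels of the flavanone 3-hydroxylase, of codes SP1A and SP1E, differed by 0.73 between the same arrays. This was also more than in 95.9% of the genes tested, where the median SP1 difference was 0.17. Dye and array changed together here and cannot be told apart.

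**Figure D3:**
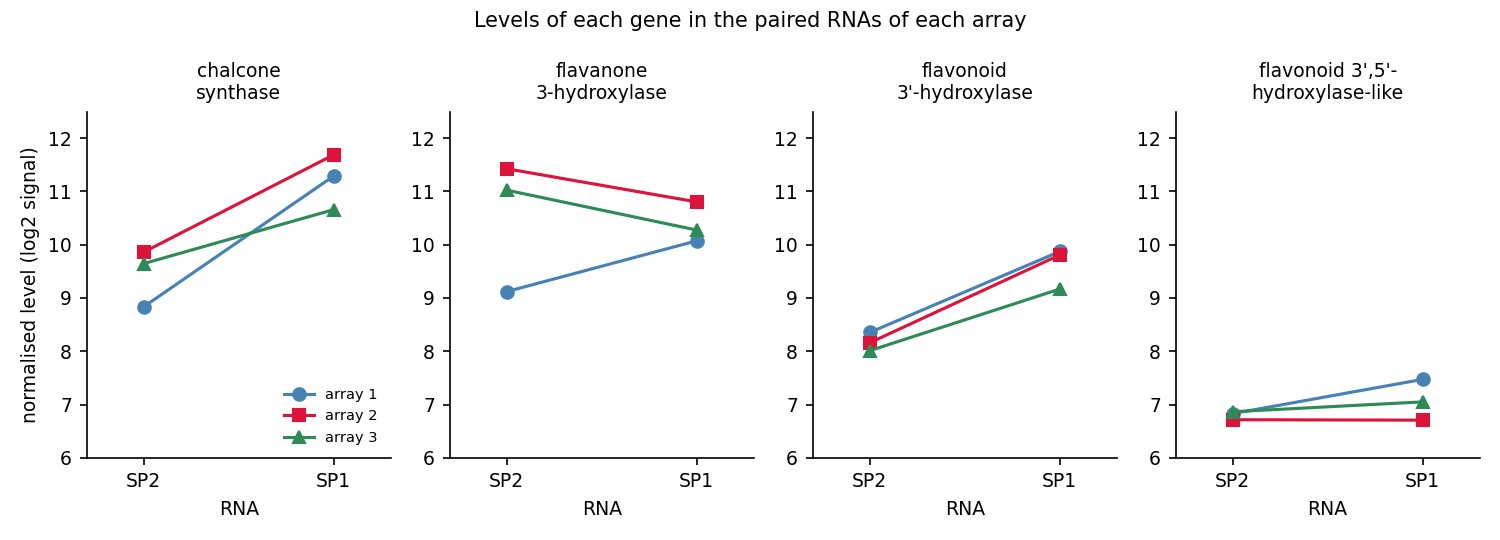
Normalised log2 level (vertical axis) of each gene in the SP2 RNA (left) and the SP1 RNA (right) of arrays 1, 2 and 3, with a line joining the pair of each array. The lines of chalcone synthase and the flavonoid 3'-hydroxylase run upward on all 3 arrays, and for the flavanone 3-hydroxylase array 1, with an SP2 level of 9.12, runs against the others. Levels are not comparable between genes.

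Turned by the labels, the order of the genes was another one. As fiber over ovules by the labels, the flavanone 3-hydroxylase had ratios of -0.95, -0.62 and -0.75 on arrays 1, 2 and 3 and a mean of -0.78 ± 0.14 (SE of the fit, n = 3), so that it was lower in fiber on each array. Chalcone synthase then had -2.46, 1.83 and 1.01, and the 3'-hydroxylase -1.52, 1.65 and 1.16, with array 1 against the others. In this orientation limma called 0 of the 4 genes and 0 of the 11081 genes tested at an adjusted p under 0.05, and the ordinary test also called 0. At an unadjusted p under 0.05, limma gave 538 of the 11081 genes and the ordinary test 624. The flavanone 3-hydroxylase was among them in both. About as many genes pass this threshold where no gene differs, so nothing is read from it. Of all genes tested, 12.8% shared the signs that the flavanone 3-hydroxylase had by the codes, below 0 on array 1 and above 0 on arrays 2 and 3, and 0.785% did so with a size of at least 0.5 on each array. GhACY, an acetyltransferase gene among the 5 young fiber genes, was of this kind, with -0.73, 1.84 and 1.78.

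The 3',5'-hydroxylase-like gene, whose description rests on an Arabidopsis match, had signals near the background. Its log2 ratios were -0.64, 0.01 and -0.19 on arrays 1, 2 and 3, with a mean of -0.27 ± 0.33 (SD, n = 3), a difference within the spread of the arrays. Its 4 probes had signals between 58.2 and 169 in the SP2 RNAs and between 50.6 and 225 in the SP1 RNAs, and 15 of 15 probes of the 4 genes were counted above background on all arrays in both RNAs. On array 1 the SP2 signals of its probes were 125, 169, 110 and 91.7, of which the last was below the upper 5% of the negative control spots (above 95.1). The log2 levels were 6.83, 6.72 and 6.86 in the SP2 RNAs, against 7.47, 6.71 and 7.05 in the SP1 RNAs, and these overlapped. At such signals the offset added to each intensity pulls a ratio toward 0, and with an offset of 10 in place of 50 the mean was -0.39.

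The 4 genes thus took 3 different patterns. In the SP2 RNA, chalcone synthase and the 3'-hydroxylase were below the SP1 RNA on all arrays, as were 23.1% of all genes tested. The flavanone 3-hydroxylase changed sides, and the 3',5'-hydroxylase-like gene stayed within 0.64 of 0. Between chalcone synthase and flavanone 3-hydroxylase, both of the main route, the ratios differed by -1.50, -2.45 and -1.76 on arrays 1, 2 and 3 (mean -1.91 ± 0.49, SD, n = 3), with chalcone synthase the lower each time. The pair of cytochrome P450 genes, the 3'-hydroxylase minus the 3',5'-hydroxylase-like gene, differed by -0.88, -1.66 and -0.97 (mean -1.17 ± 0.43, SD, n = 3). Of the 6 pairs of the 4 genes, 4 had differences of 1 sign on all 3 arrays. In each of these, chalcone synthase or the 3'-hydroxylase was the lower gene. The pairs share genes and other pairs of the array were not counted, so nothing is read from this count.

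**Figure D4:**
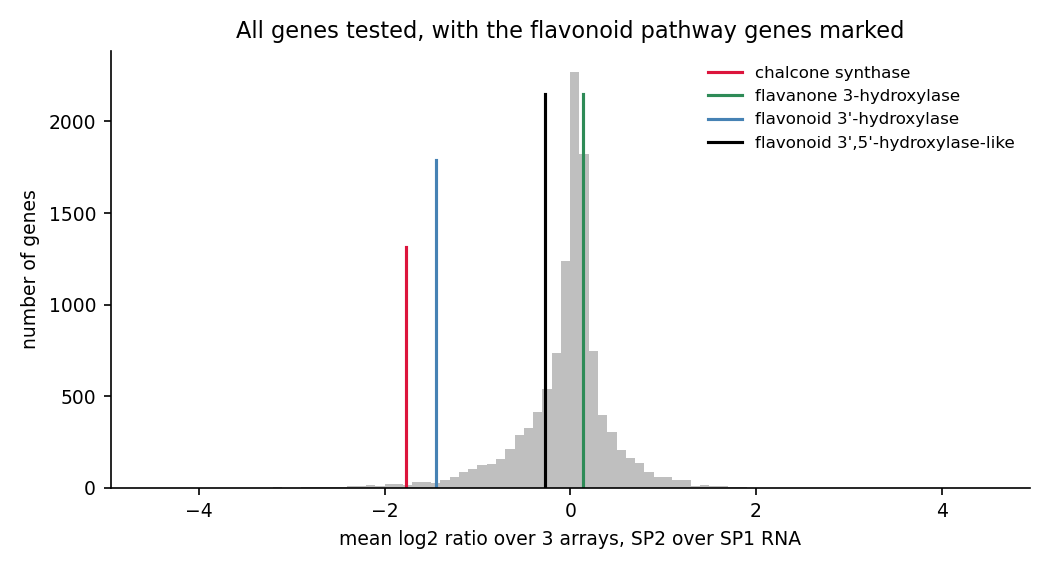
Number of genes (vertical axis) by mean log2 ratio of SP2 over SP1 RNA over 3 arrays (horizontal axis, bins of 0.1) for all 11081 genes tested, with the 4 flavonoid pathway genes marked by lines whose heights carry no value. Chalcone synthase at -1.77 and the flavonoid 3'-hydroxylase at -1.44 lie in the lower tail, and the median of all genes is 0.04.

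Genes around the pathway were taken from the descriptions in the study's table by keyword. They are the genes that feed the pathway, draw on the same precursors, modify or move its products, or belong to the same enzyme families, and 30 such genes were found and tested. Of these, 8 rose and 8 fell in the SP2 RNA relative to the SP1 RNA, 14 were not called, and the median ratio was 0.23, against 0.04 over all genes tested. With median centring, and also with the deposited ratios, 2 of the 30 were higher and 6 lower. The share called, 53.3%, is to be read beside the 59.5% of all 1036 tabulated genes that were called, since the table was drawn up on these arrays. The list is therefore no independent evidence of a direction. The same holds for the counts by group below.

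Upstream, phenylalanine ammonia-lyase (Contig5395), which opens the phenylpropanoid route, had a ratio of -0.02 ± 0.15 (SE, n = 3; adjusted p = 0.965) and ratios of -0.25, -0.04 and 0.24 on arrays 1, 2 and 3. The 4-coumarate CoA ligases, which make the substrate of chalcone synthase and of lignin precursors alike, went in opposite directions. Contig1, matched to isoform 1, was higher in the SP2 RNA with 0.86 ± 0.15 (adjusted p = 0.0181), and a singleton matched to isoform 4 was lower with -1.82 ± 0.16 (3.52-fold, adjusted p = 0.00213). The singleton had -2.08, -1.82 and -1.55 on arrays 1, 2 and 3, so that, as in chalcone synthase, array 1 was the lowest and array 3 the nearest to 0.

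In the branch to lignin precursors, the cinnamoyl CoA reductase Contig1778 was higher in the SP2 RNA, at 1.22 ± 0.18 (SE, n = 3; adjusted p = 0.0103), and so was the caffeic acid O-methyltransferase Contig3634, at 1.18 ± 0.22 (adjusted p = 0.0220). The cinnamyl alcohol dehydrogenase Contig5358, similar to a defence gene, was lower with -1.85 ± 0.14 (adjusted p = 0.00179). The other cinnamoyl CoA reductase, Contig13096, had 0.25 ± 0.14 (adjusted p = 0.346). Of 4 genes of the branch, 2 were higher, 1 was lower and 1 was not called (75% called, against 59.5% of tabulated genes).

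Glucosyltransferases are enzymes of a family that attaches sugars to flavonoids and other small molecules. Of 4 such genes, 1 was higher and 2 were lower (75% called, against 59.5% of tabulated genes). Contig5112, matched to a strawberry enzyme, had the largest ratio of them, -2.13 ± 0.22 (SE, n = 3; 4.38-fold, adjusted p = 0.00362), TMIRS_055_A01.F was higher with 0.65 ± 0.13 (adjusted p = 0.0280), and TMIRS_075_B06.F was lower with -0.59 ± 0.13 (adjusted p = 0.0351). Among 3 genes of families that carry flavonoids into the vacuole in other plants, the MATE efflux gene Contig3407 was higher with 1.02 ± 0.23 (adjusted p = 0.0353) and the glutathione S-transferase gene Contig2492 lower with -0.65 ± 0.13 (adjusted p = 0.0278). Contig9766, also of the MATE family, had 0.89 ± 0.23 (adjusted p = 0.0575). Of 3 phenol oxidases, Contig1711 was higher with 1.09 ± 0.14 (adjusted p = 0.00710), Contig11166 had 0.55 ± 0.19 (adjusted p = 0.120), and the laccase was not called.

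TTG1, a WD repeat protein, regulates in Arabidopsis both the trichomes and the flavonoid genes of the seed coat. Its relatives on the array were Contig6466, at 0.48 ± 0.16 (SE, n = 3; adjusted p = 0.107), and a singleton at 0.43 ± 0.20 (adjusted p = 0.256). Of these 2, 0 were called, and 1 had an unadjusted p under 0.05, as had 2747 of the 11081 genes tested. Of the 1036 tabulated genes, from which both came, 59.5% were called. Contig6466 was positive on all 3 arrays, between 0.19 and 0.70, and the singleton was near 0 on array 1 (-0.05). Both means were thus on the other side of 0 from chalcone synthase, with no call.

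Genes of the same enzyme families went in different directions or were not called. Of 8 other cytochrome P450 genes, 2 were higher and 3 lower (62.5% called, against 59.5% of tabulated genes), with means between -2.54 and 1.49. Those with the largest ratios were a singleton of the 71D type (-2.54 ± 0.17; adjusted p = 0.00153) and Contig3515 (-1.91 ± 0.19; adjusted p = 0.00308; SE, n = 3), each with 1 probe. The dioxygenases of the family of flavanone 3-hydroxylase numbered 3, with means between -0.14 and 0.21. Of these, 0 were called and 0 had an unadjusted p under 0.05, against 2747 of the 11081 genes tested. Of the 1036 tabulated genes, from which these came, 59.5% were called. The largest in size were Contig3303 (0.21 ± 0.18; adjusted p = 0.617) and TMIRS_213_F05.F (-0.14 ± 0.16; adjusted p = 0.718).

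**Figure D5:**
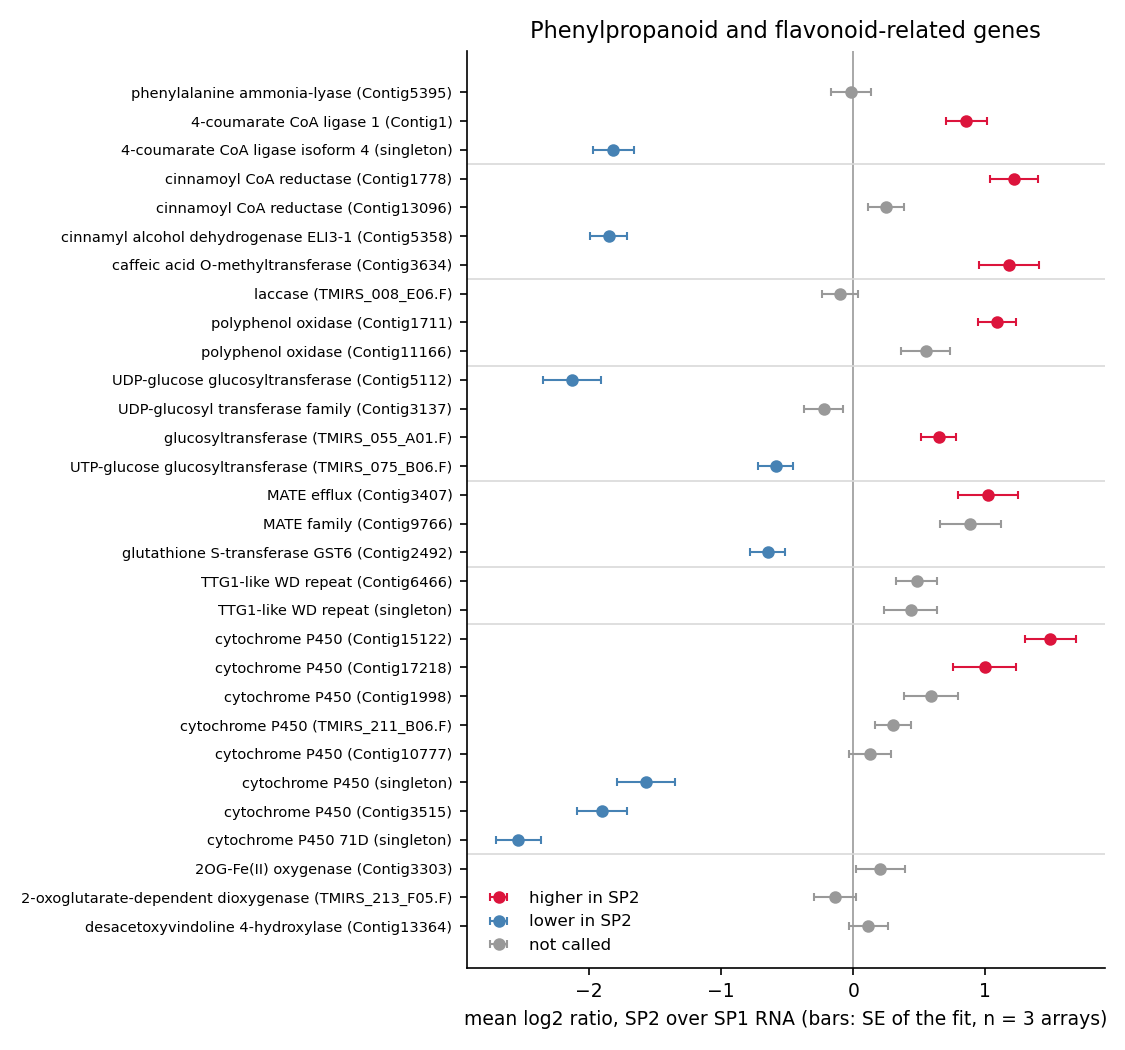
Mean log2 ratio of SP2 over SP1 RNA (horizontal axis, points) with the SE of the fit (bars, n = 3 arrays) for 30 genes around the pathway, grouped by role, with genes called higher, called lower or not called at an adjusted p under 0.05 in separate colours. Means of the 16 genes called, 8 on either side of 0, and of the other genes lie between -2.54 and 1.49.

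To see which annotated genes had the same course over the arrays, the distance between a gene's 3 ratios and those of each of the 1032 other tabulated genes was taken, as the square root of the summed squared differences. Nearest to chalcone synthase were a singleton matched to acetyl-CoA acetyltransferase (distance 0.20), a singleton matched to the ion channel CNGC2 (0.26) and Contig18526 (0.27), matched to an unnamed Arabidopsis gene. Nearest to the 3'-hydroxylase were Contig13994, an unknown protein (0.07), Contig15784, a zinc finger gene (0.14), and a singleton matched to DNA polymerase epsilon (0.16). In both cases 3 genes of the whole array lay within the distance of the third neighbour.

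Nearest to the flavanone 3-hydroxylase were the receptor kinase gene Contig10372 (0.24), Contig1564 (0.26) and Contig14653 (0.30), the last a pair without a named function, and 21 genes of the whole array lay as near as the third. Nearest to the 3',5'-hydroxylase-like gene were Contig1984, a growth-regulating factor gene (0.07), Contig1022 (0.19) and Contig11492, a LIM factor gene (0.20), with 83 genes as near as the third. With 3 arrays such likeness is only a description.

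Where the SP2 RNA had less of chalcone synthase and the 3'-hydroxylase, it also had less of the 3 genes of dividing cells. All 3 were called lower, as were 8.31% of all genes tested. The 5 genes of young fiber had positive means, where the median over all genes tested was 0.04. Only 2 of these 5 were called higher, and GhACY was at -0.73 on array 1. These genes were picked with earlier results of these data known. The summed share of other ovule cells in either RNA was not measured, and its part in these ratios was not tested.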

How the data were processed

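The authors quantified 3 arrays with Agilent Feature Extraction and deposited, per spot, the mean intensity and local background intensity in green and red, with a flag (a value of other kind) for green spots well above background. The deposited series table holds log2 red over green, and 42034 of its 42034 values matched background-subtracted intensities within 1e-06. Background was corrected by normexp (offset 50) and ratios normalized by loess within arrays with limma 3.58.1 in R 4.3.3. Signals in red were called above background past 2.6 robust SD over the negative controls. Of 40372 probes, 38713 above background in either channel on at least 2 arrays were kept, spots averaged to probes and probes to genes. The 3 array ratios of each of 11081 genes were fitted with lmFit and eBayes, adjusted by Benjamini-Hochberg. Channel levels followed Aquantile scaling. Array number limits the precision. Unless SD is written, errors are moderated SE. No spot of the 4 genes was saturated (65000).

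Members, lists and tests were chosen with earlier results of these data known. Named were all 4 members, every phenylpropanoid, monolignol and TTG1 gene of the keyword list, in its other groups the 2 largest ratios and all called genes where these were 4 or fewer, and the 3 nearest tabulated genes per member. The code was tested on simulated data. Alternatives were other centring, offset, filter, probe summary, orientation and test, and leaving out each array. Probe sequences were not analysed here, and gene names of the array had no match in the RefSeq table used.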

Additional observations from a re-analysis of the deposited data

How the results depend on the processing

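With median centring in place of loess, 329 genes were called, 1 of the 4 flavonoid genes (the 3'-hydroxylase) and 8 of the 30 related genes. These counts were 246, 0 and 8 from the deposited ratios, whose median over genes was 0.25 (0.04 after loess). They were 0, 0 and 0 with the arrays turned by the labels, where chalcone synthase had 0.13 and the 3'-hydroxylase 0.43 as fiber over ovules, and 2, 0 and 0 with the ordinary test. The cause was not tested, apart from the signs that the labels turn. Leaving out each array gave 994 to 1999 called genes, 2 to 3 of the flavonoid genes and 12 to 19 of the related genes. The third flavonoid gene, called without array 1, was the flavanone 3-hydroxylase, with 0.69, and its mean was -0.10 without array 2 and -0.17 without array 3. Without array 1 more genes were higher (1121) than lower (878), against 438 and 921 with all arrays. Over the 10 settings that kept the codes, chalcone synthase lay between -2.33 and -1.42 and the 3'-hydroxylase between -1.90 and -1.29, the lowest value of each without probe 1, a setting chosen after seeing the data. The 3',5'-hydroxylase-like gene lay between -0.41 and -0.09. The ratio within each array already pairs its SP2 with its SP1 RNA, and the labels give no replicate numbers for a further block.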

Other observations

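Probe 1 stood nearest to 0 in both chalcone synthase and the flavonoid 3'-hydroxylase, and the same position was compared over the whole array after this had been seen. Among the 665 genes of 4 probes called lower in the SP2 RNA, probe 1 had the highest mean ratio in 57.4%, against 19.8%, 10.5% and 12.0% for probes 2, 3 and 4. Among the 315 such genes called higher, probe 1 had the lowest mean ratio in 57.1%, against 21.3%, 11.4% and 10.2%. The median ratios of probes 1 to 4 were -0.77, -0.97, -1.20 and -1.33 in the genes called lower and 0.69, 0.85, 1.02 and 1.06 in the genes called higher. What the probe number stands for is not given in the sources used here, and the cause was not tested. Without probe 1, the chalcone synthase ratio of SP2 over SP1 RNA was -2.33 in place of -1.77.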
